A study of Mus musculus with 33 samples.

Results

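Ly6C-high (Ly6Chi) monocytes of mouse bone marrow were compared with their transitional pre-monocytes (TpMo) by bulk RNA sequencing, across all genes and with most weight on genes outside cell division and the interferon response. The members are the libraries whose cell type label is ly6chi_mo (3 libraries) or tpmo (3 libraries), 6 of the 33 libraries of the series. Both populations came from the bone marrow of mice. Their labels carry a cell type and no treatment, and the libraries from mice with sepsis, which the series sets beside wild-type (WT) controls, are labelled separately. The series describes 3 biological replicates of each population, and the labels used here give no strain, sex, age or gate for these 2. Other libraries serve for comparison. They are the common monocyte progenitor (cMoP, 3 libraries) of the same path, and the pre-neutrophils (preNeu) and proNeu2 progenitors (6 libraries together) of the neutrophil path, all labelled without sepsis. All values are CPM, the reads of a gene per fixed total of a library's reads, after TMM scaling, and changes are log2 fold changes ± SE of Ly6Chi monocytes over TpMo with Benjamini-Hochberg adjusted p-values over all tested genes.

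Monocytes arise in bone marrow from granulocyte-monocyte progenitors through the cMoP, which still divides and depends on the receptor Csf1r. The TpMo is a dividing stage between the cMoP and the mature Ly6Chi monocyte, and earlier work separated it from the monocyte by its surface CXCR4, a receptor that holds cells in the marrow. Ly6Chi monocytes leave the marrow through CCR2, enter inflamed tissue and can become macrophages, dendritic-like cells or the Ly6C-low patrolling monocytes that crawl along vessel walls. Azurophil granule proteins are made early on this path, in the cMoP and its ancestors, while class II molecules and the receptors for microbes and antibodies equip the mature cell.

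Total counts were 22461543, 6032939 and 22079319 in Ly6Chi libraries, against 17237611, 21505178 and 21665294 in TpMo libraries, so Ly6Chi replicate 2 is the shallow library. Ly6Chi replicate 3 stands apart from the other 2 monocyte libraries: 3.07% of its counts were mitochondrial, against 1.79% and 1.27% in Ly6Chi replicates 1 and 2 and 1.58% to 1.9% in TpMo libraries. It was the lowest of the 3 Ly6Chi libraries for 588 of the 1307 genes called higher in Ly6Chi monocytes outside the cell cycle and interferon lists, against 233 for replicate 1 and 479 for replicate 2. Its library number also lies outside the run of the others, and its place in any batch is not given. Some of the results that lean on it are given with and without it. Genes that define monocytes were present in every library of both groups, with Csf1r at 2261, 2141 and 1269 CPM in Ly6Chi monocytes and 993, 973 and 1004 CPM in TpMo. Kit, the stem cell factor receptor of progenitors, was at 0.0969, 0.340 and 0.174 CPM in Ly6Chi monocytes and 1.3, 0.284 and 0.949 CPM in TpMo, against 187 ± 28.9 CPM (SD, n = 3) in cMoP. Both groups carried the transcripts of male mice: Ddx3y, a Y-linked gene, was at 87.8, 76.8 and 80.3 CPM in Ly6Chi monocytes and 76.3, 94.6 and 76.5 CPM in TpMo.

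Of 18198 tested genes, 3802 (20.9%) differed at an adjusted p under 0.05, with 1382 (7.59%) higher and 2420 (13.3%) lower in Ly6Chi monocytes. These shares are the background for each list count that follows. The split between higher and lower calls depends on the tool and scaling: DESeq2 called 2088 higher and 2377 lower, limma 1961 and 2187, RLE scaling 1741 and 2122, and upper quartile scaling 1803 and 2081. Changes of at least 8-fold numbered 177 up and 456 down. Outside the cell cycle and interferon lists, 3446 of 17768 genes (19.4%) were called, 1307 higher and 2139 lower, and in 3145 of these the 2 groups' libraries did not overlap (33.9% of all tested genes did not overlap). In bulk RNA, fewer cells of a type and less RNA per cell cannot be told apart, which touches every result that follows.

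**Figure D1:**
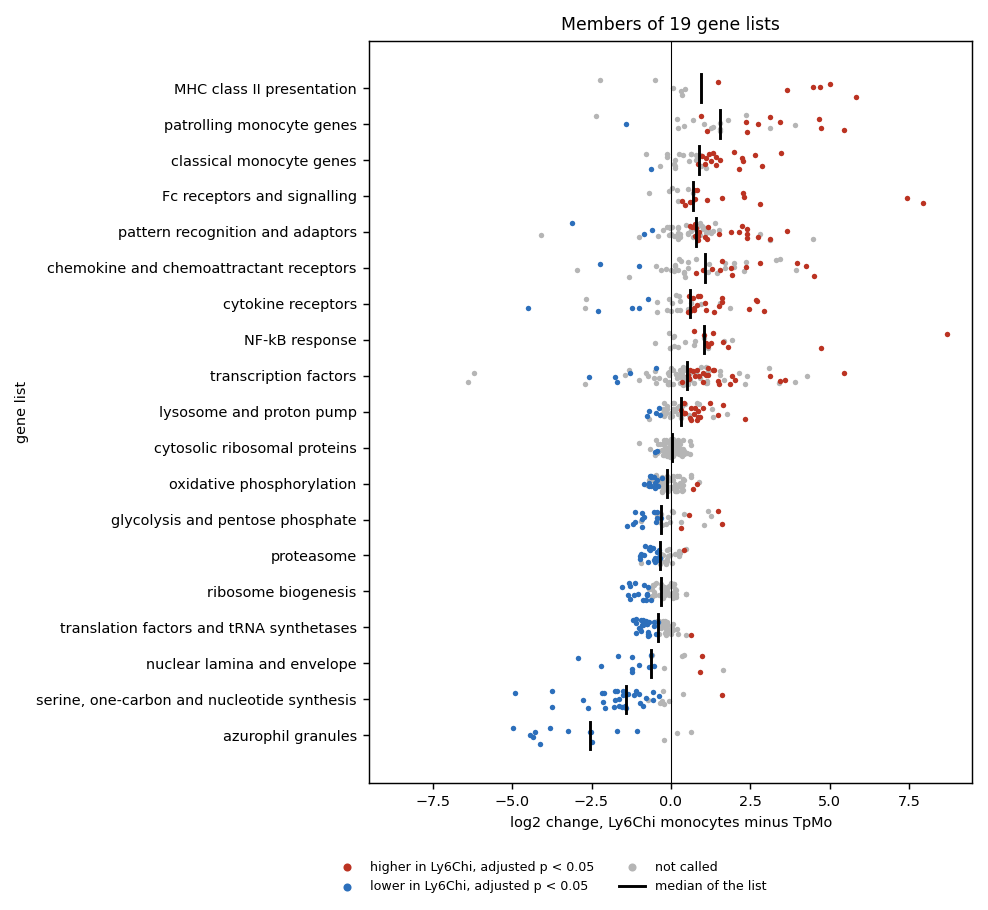
Each point is a gene of a list, placed by its log2 change in Ly6Chi monocytes minus TpMo (x axis); rows are gene lists, red and blue points passed adjusted p under 0.05 and black bars are list medians. Most class II presentation genes lie either near 0 or far to the right, with 1 gene that was not called at -2.23, while azurophil granule genes lie far to the left with a median of -2.56. The 3 points beyond 7 are Fcer1a and Ms4a2 in the Fc receptor list and Traf1 in the NF-kB list, none of which had a count in any TpMo library, so their fitted changes are no measured folds.

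Genes for azurophil granules, the primary granules that neutrophil and monocyte progenitors fill with proteases and myeloperoxidase, were lower in Ly6Chi monocytes. Of 15 measured genes, 12 fell, none rose and 3 were not called, where 13.3% of all tested genes fell, and the list median was -2.56. Mpo, which encodes myeloperoxidase, had 40.2, 39.4 and 43.5 CPM in Ly6Chi monocytes, against 1275, 1279 and 1295 CPM in TpMo (log2 change -4.96 ± 0.18, adjusted p = 6.5e-18). The libraries of each group lay within a narrow band, far apart from the other group, and cMoP averaged 20889 ± 1617 CPM. Elane (neutrophil elastase) had 27.6, 22.1 and 58.8 CPM in Ly6Chi monocytes, against 665, 711 and 752 CPM in TpMo (log2 change -4.27 ± 0.25, adjusted p = 1.17e-13). Prtn3 (proteinase 3) changed by -3.23 ± 0.31 and Ctsg (cathepsin G) by -3.80 ± 0.40, and Ms4a3, a membrane protein of granulocyte-monocyte progenitors, had 0.969, 0.340 and 2.26 CPM in Ly6Chi monocytes, against 32.5, 27.7 and 26.9 CPM in TpMo. Serpinb1a, an inhibitor of these proteases, fell by less (-1.06 ± 0.15). Fcnb, a secreted ficolin that binds sugars on microbes, averaged 107 ± 7.8 CPM in cMoP, and had 34, 28 and 60.0 CPM in Ly6Chi monocytes, against 207, 240.3 and 243 CPM in TpMo (log2 change -2.48 ± 0.25, adjusted p = 8.42e-09), so its level was highest at the middle stage. Srgn, the proteoglycan that packs granule proteins, and Ctsc, the protease that activates elastase, proteinase 3 and cathepsin G, were not called, with changes of 0.64 ± 0.24 and 0.20 ± 0.22. Srgn lay close to the threshold (adjusted p = 0.0573) and was called higher without Ly6Chi replicate 3 (adjusted p = 0.0425) or TpMo replicate 2 (adjusted p = 0.0492), by DESeq2 (adjusted p = 0.0128), with RLE (adjusted p = 0.0275) or upper quartile scaling (adjusted p = 0.0256), among genes at 5 CPM or more (adjusted p = 0.0306) and in the fits on the 9 monocyte-path libraries (adjusted p = 0.0208) or on these 6 libraries alone (adjusted p = 0.0471). Ly6Chi replicate 3 had the most Elane, Prtn3, Ctsg and Ms4a3 of the 3 monocyte libraries, and without it Elane changed by -4.86, Ms4a3 by -5.21 and the list median was -3.66 with 12 lower and 1 higher. Without TpMo replicate 2 there was also 1 higher.

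The promoters of Mpo, Elane, Prtn3 and Ctsg, the 4 protease and peroxidase genes among the abundant falls, are shown because all hold a short purine-rich match, 1 of 5 short motifs searched on both strands; each is the 250 bases before the RefSeq gene start (GRCm38.p6), read along the gene's strand, with every match to GAGGAAG on either strand, a core of the kind bound by the ETS factor PU.1, in capitals. The regions are chr11:87793534-87793783 (plus strand) for Mpo, chr10:79886062-79886311 (plus) for Elane, chr10:79879417-79879666 (plus) for Prtn3, which is the neighbour of Elane, and chr14:56102575-56102824 (minus) for Ctsg. The deposited annotation starts Mpo at 87793581 and Elane at 79886247, inside these windows, and places Prtn3 at 79874476 to 79883174, so that its whole window lies within the deposited gene.
Mpo: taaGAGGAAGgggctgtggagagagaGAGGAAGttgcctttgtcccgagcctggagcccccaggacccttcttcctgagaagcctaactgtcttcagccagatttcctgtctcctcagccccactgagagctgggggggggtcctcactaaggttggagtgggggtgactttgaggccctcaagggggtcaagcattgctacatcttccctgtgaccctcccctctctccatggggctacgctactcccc
Elane: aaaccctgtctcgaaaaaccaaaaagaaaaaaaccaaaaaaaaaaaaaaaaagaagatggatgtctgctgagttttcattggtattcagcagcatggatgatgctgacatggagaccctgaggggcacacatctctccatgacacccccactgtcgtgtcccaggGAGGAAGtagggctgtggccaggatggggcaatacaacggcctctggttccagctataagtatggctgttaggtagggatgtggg
Prtn3: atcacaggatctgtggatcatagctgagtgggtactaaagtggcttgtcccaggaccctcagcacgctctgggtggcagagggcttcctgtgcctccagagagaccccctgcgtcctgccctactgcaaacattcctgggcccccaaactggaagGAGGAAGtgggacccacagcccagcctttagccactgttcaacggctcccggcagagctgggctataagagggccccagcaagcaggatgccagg
Ctsg: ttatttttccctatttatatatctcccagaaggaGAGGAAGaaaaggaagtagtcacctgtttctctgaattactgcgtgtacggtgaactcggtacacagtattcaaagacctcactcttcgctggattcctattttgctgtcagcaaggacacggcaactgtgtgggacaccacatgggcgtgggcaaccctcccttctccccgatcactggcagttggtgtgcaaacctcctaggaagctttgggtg
Matches began at positions -247 and -224 in Mpo, -85 in Elane, -95 in Prtn3 and -216 in Ctsg, counted back from the gene start. The letters occurred in 5 of 13 azurophil promoters in the table (38.5%), against 11.2% of 11094 promoters of tested genes, 12% of genes called higher and 10.9% of genes called lower outside the 2 sets of lists. A match describes the letters and is no sign of a bound factor. Of the other 3 motifs, CACGTG was in 8.17% of all promoters, the AP-1 site TGAGTCA in 3.24% and the cell cycle element TTTGAA in 11.3%. In the 13 azurophil promoters CACGTG was in 1 (7.69%), TGAGTCA in 0 and TTTGAA in 3 (23.1%).

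**Figure D2:**
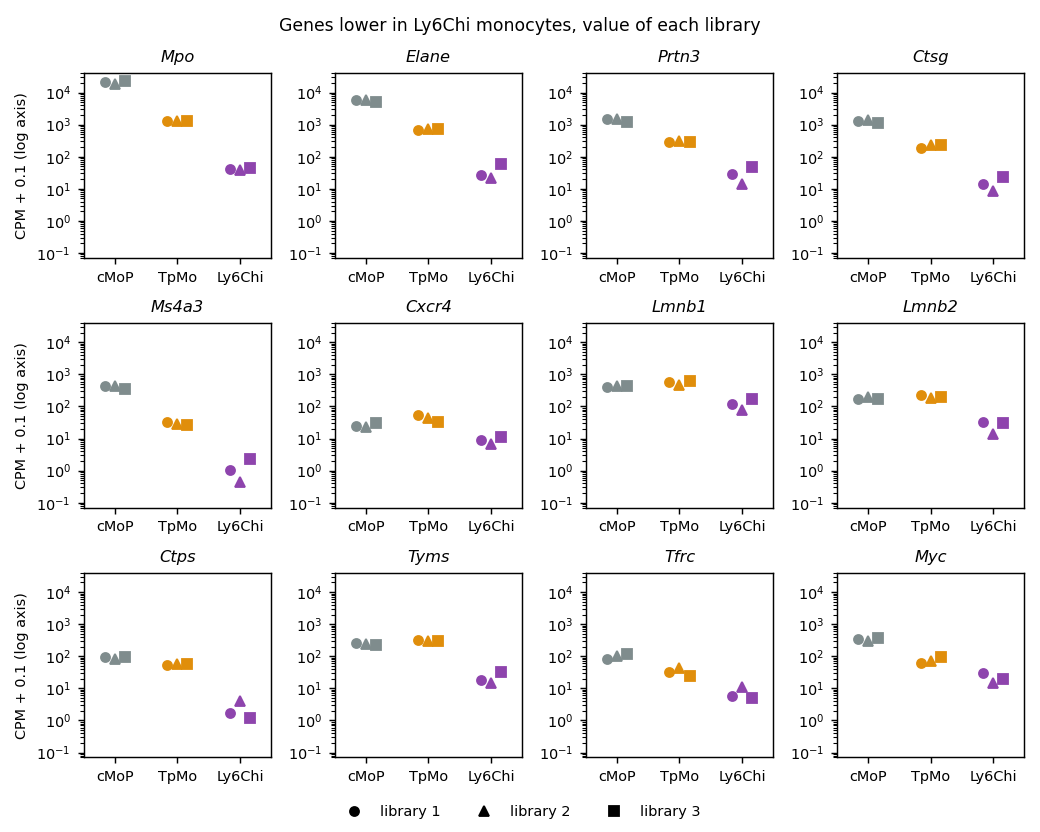
Each panel shows 1 gene that was lower in Ly6Chi monocytes, with each of 3 libraries per stage as a marker. The y axis is CPM + 0.1 on a log scale and stages run cMoP, TpMo, Ly6Chi. Mpo stands near 20889 CPM in cMoP, at 1275 to 1295 in TpMo and at 39.4 to 43.5 in Ly6Chi monocytes, whereas Lmnb1, Lmnb2 and Cxcr4 are about as high in TpMo as in cMoP or higher and are low in Ly6Chi monocytes.

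Genes for antigen presentation on MHC class II were higher in Ly6Chi monocytes, in part of the list. Of 12 measured genes 6 rose, where 7.59% of all tested genes did, none fell and 6 were not called. H2-Aa, the class II alpha chain, had 118, 102 and 20.5 CPM in Ly6Chi monocytes, against 2.6, 0.758 and 0.949 CPM in TpMo (log2 change 5.83 ± 0.71, adjusted p = 2.9e-07, and 6.50 without TpMo replicate 1). H2-Ab1, the matching beta chain, had 236, 169 and 70.4 CPM in Ly6Chi monocytes, against 4.97, 7.3 and 6.07 CPM in TpMo (log2 change 4.69 ± 0.39, adjusted p = 1.3e-10). H2-Eb1, the other beta chain, changed by 5.00 ± 0.70, and Cd74, the invariant chain that guides class II molecules to the endosome, had 486, 413 and 105 CPM in Ly6Chi monocytes, against 11.6, 13.7 and 19.4 CPM in TpMo (log2 change 4.48 ± 0.56, adjusted p = 3.72e-07). In all 4 genes the 2 groups were far apart, and Ly6Chi replicate 3 lay well below replicates 1 and 2 but above every TpMo library. Without Ly6Chi replicate 3 the changes were larger, at 6.25 for H2-Aa, 5.01 for H2-Ab1, 5.40 for H2-Eb1 and 4.87 for Cd74. Ctss, the cathepsin that trims the invariant chain, was higher in level and had 2656, 2456 and 1629.6 CPM in Ly6Chi monocytes, against 769, 823 and 810.0 CPM in TpMo (log2 change 1.49 ± 0.36, adjusted p = 0.0028). Ciita, the transactivator of class II genes, had 24.7, 13.6 and 6.95 CPM in Ly6Chi monocytes, against 0.237, 3.22 and 0.0949 CPM in TpMo, and its call (log2 change 3.65 ± 1.26, adjusted p = 0.0384) was lost without Ly6Chi replicate 1 (adjusted p = 0.124), Ly6Chi replicate 2 (adjusted p = 0.0564), TpMo replicate 1 (adjusted p = 0.15) or TpMo replicate 3 (adjusted p = 0.138), while without TpMo replicate 2 the change was 6.49. The peptide loading genes H2-DMa and H2-DMb1 were not called. H2-DMa had 274, 302 and 274 CPM in Ly6Chi monocytes, against 208, 205 and 253 CPM in TpMo, and it was called higher by limma (adjusted p = 0.0103) and in the fit on the 9 monocyte-path libraries (adjusted p = 0.0473). H2-DMb1 had 154, 142 and 132 CPM in Ly6Chi monocytes, against 109, 112 and 121 CPM in TpMo. Without Ly6Chi replicate 3 the list had 6 higher and 0 lower and its median was 1.24, against 0.96 with all libraries.

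Since dendritic cells and macrophages carry class II molecules too, their markers are given beside this result. The 14 measured dendritic cell genes summed to 277.5 to 481.2 CPM in Ly6Chi monocytes, against 76.56 to 93.11 CPM in TpMo, and 4 of them rose, H2-Ab1, Tcf4, Flt3 and Cd209a, with 2 higher without TpMo replicate 1. H2-Ab1 is itself part of the class II result. It held 236, 169 and 70.4 CPM of that sum in Ly6Chi monocytes, against 4.97, 7.3 and 6.07 CPM in TpMo. Flt3 was not called without TpMo replicate 1 (adjusted p = 0.0514). Cd209a, a lectin of monocyte-derived dendritic cells, had 46.2, 61.8 and 50.9 CPM in Ly6Chi monocytes, against 1.77, 5.59 and 5.12 CPM in TpMo (log2 change 3.66 ± 1.17, adjusted p = 0.0252), and was called without Ly6Chi replicate 1 but not without Ly6Chi replicate 2 (adjusted p = 0.0658), Ly6Chi replicate 3 (adjusted p = 0.0539) or TpMo replicate 1, 2 or 3 (adjusted p = 0.112, adjusted p = 0.0644 and adjusted p = 0.0674). Zbtb46, Clec9a and Xcr1, genes that mark conventional dendritic cells, were low in both groups. Zbtb46 had 1.16, 0 and 0.826 CPM in Ly6Chi monocytes and 0, 0.379 and 0.142 CPM in TpMo. Clec9a had 0, 3.74 and 0 CPM in Ly6Chi monocytes and 1.24, 4.36 and 3.6 CPM in TpMo. Xcr1 had 0, 2.72 and 1.74 CPM in Ly6Chi monocytes and 0.532, 1.04 and 0 CPM in TpMo. Of 14 macrophage genes 3 rose, Apoe, the F4/80 antigen gene Adgre1 (1.61 ± 0.34) and Spic at 1.45, 0 and 2.39 CPM in Ly6Chi monocytes and 0.118, 0 and 0 CPM in TpMo. Spic was not called without Ly6Chi replicate 1 (adjusted p = 0.0669), Ly6Chi replicate 3 (adjusted p = 0.12), TpMo replicate 2 (adjusted p = 0.148) or TpMo replicate 3 (adjusted p = 0.141). The macrophage list summed to 861.9 to 2403 CPM in Ly6Chi monocytes, against 198.7 to 224.2 CPM in TpMo. In Ly6Chi monocytes most of that sum is Apoe, while C1qa, a complement gene of tissue macrophages, was near 0, at 2.23, 1.02 and 1.74 CPM in Ly6Chi monocytes and 0, 0.474 and 0.0949 CPM in TpMo, and the adhesion gene Vcam1 was at 4.26, 0 and 0.565 CPM in Ly6Chi monocytes and 0.828, 1.14 and 2.09 CPM in TpMo. The part of such cells in the class II result was not tested.

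The promoters of H2-Aa and H2-Eb1, 2 of the class II genes that rose, are shown beside that of H2-DMb1, which was not called, as an example of each. The capitals mark GATTGG on either strand, the inverted CCAAT core of the Y box that class II promoters are known for. The regions are chr17:34287824-34288073 (minus strand) for H2-Aa, chr17:34305617-34305866 (plus) for H2-Eb1 and chr17:34152941-34153190 (plus) for H2-DMb1, all from RefSeq in GRCm38.p6 and within the MHC of chromosome 17. The deposited annotation ends H2-Aa, a gene of the minus strand, at 34287827 and starts H2-DMb1 at 34153072, both inside these windows.
H2-Aa: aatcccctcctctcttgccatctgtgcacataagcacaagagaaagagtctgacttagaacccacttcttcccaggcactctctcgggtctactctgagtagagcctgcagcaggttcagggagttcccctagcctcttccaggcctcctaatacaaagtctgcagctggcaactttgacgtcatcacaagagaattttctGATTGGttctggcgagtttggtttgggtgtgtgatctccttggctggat
H2-Eb1: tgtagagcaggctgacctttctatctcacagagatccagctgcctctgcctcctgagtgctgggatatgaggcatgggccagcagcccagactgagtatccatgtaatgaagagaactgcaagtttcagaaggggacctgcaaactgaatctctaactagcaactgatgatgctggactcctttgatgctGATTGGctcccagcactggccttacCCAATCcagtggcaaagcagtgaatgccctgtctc
H2-DMb1: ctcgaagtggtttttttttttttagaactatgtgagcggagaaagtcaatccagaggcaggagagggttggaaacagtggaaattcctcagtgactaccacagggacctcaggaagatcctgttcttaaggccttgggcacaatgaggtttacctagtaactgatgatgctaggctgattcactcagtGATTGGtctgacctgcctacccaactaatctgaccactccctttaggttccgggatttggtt
The core began at position -49 in H2-Aa, at -60 and, on the other strand, -35 in H2-Eb1, and at -62 in H2-DMb1. It was present in 6 of 9 class II promoters in the table (66.7%), against 19.5% of all 11094 promoters and 45% of those of the cell cycle lists. These letters stand in the same window in class II genes that rose and in one that was not called. GAGGAAG was in 0 of the 9 class II promoters.

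**Figure D3:**
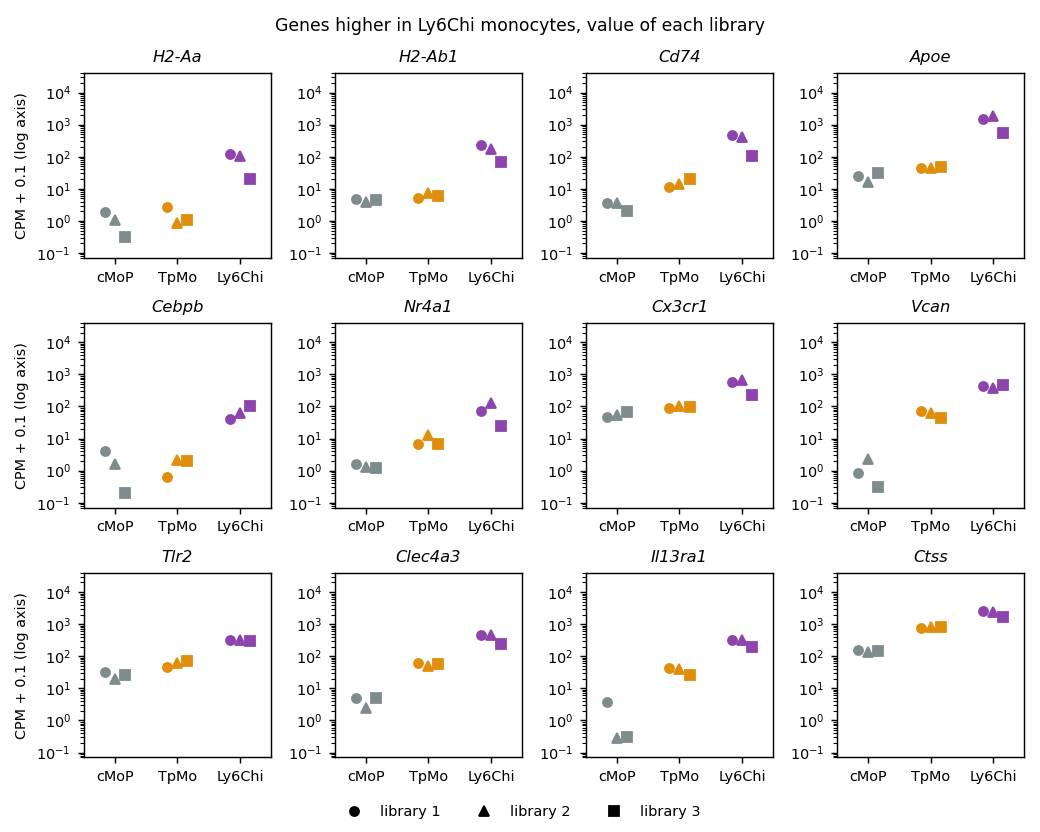
Each panel shows 1 gene that was higher in Ly6Chi monocytes, with each of 3 libraries per stage as a marker. The y axis is CPM + 0.1 on a log scale and stages run cMoP, TpMo, Ly6Chi. H2-Aa and H2-Ab1 are at like levels in cMoP and TpMo and high in Ly6Chi monocytes, Il13ra1, Vcan and Clec4a3 are higher at each stage than the one before, and Ly6Chi replicate 3 is the lowest monocyte library for H2-Aa, Cd74, Apoe, Nr4a1 and Cx3cr1.

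The 12 largest rises among genes at 20 CPM or more, outside the 2 sets of lists, were H2-Aa, Cebpb, Flt1, Prr5l, H2-Eb1, Apoe, H2-Ab1, Ace, Sirpb1a, Cd74, Kdm5b and Hpgd. Apoe, which carries lipid out of cells, had 1479, 1831 and 542 CPM in Ly6Chi monocytes, against 46, 42.9 and 48.7 CPM in TpMo (log2 change 4.81 ± 0.43, adjusted p = 7.25e-10). Flt1, a receptor for vascular endothelial growth factor, had 40.6, 40.1 and 22.2 CPM in Ly6Chi monocytes, against 0.118, 0.189 and 2.18 CPM in TpMo (log2 change 5.32 ± 0.68, adjusted p = 5.35e-07, and 7.68 without TpMo replicate 3). Kdm5b, a histone H3K4 demethylase, had 39.6, 32.4 and 44.3 CPM in Ly6Chi monocytes, against 1.18, 1.23 and 2.75 CPM in TpMo (log2 change 4.48 ± 0.35, adjusted p = 3.16e-11), and averaged 28.5 ± 8.0 CPM in cMoP, so it was lowest at the middle stage. Hpgd, which breaks down prostaglandins, changed by 4.42 ± 1.12, Ace, the angiotensin-converting enzyme, by 4.68 ± 1.19, and Prr5l, a partner of the mTORC2 kinase complex, by 5.31 ± 1.23 (4.72 and 5.95 without TpMo replicates 2 and 1). Among genes at 200 CPM or more the largest rises after Apoe and Cd74 included Ms4a4a (3.33 ± 0.49), the interleukin-13 receptor chain Il13ra1 (2.94 ± 0.74), the matrix proteoglycan Vcan (2.88 ± 0.61), the lectin receptor Clec4a3 (2.76 ± 0.49), the inhibitory receptor Klra2 (2.58 ± 0.63), Tlr2 and Cx3cr1. Vcan had 432, 365 and 479.5 CPM in Ly6Chi monocytes, against 70.2, 60.7 and 42.6 CPM in TpMo, and averaged 1.05 ± 1.02 CPM in cMoP. Sirpb1a, a receptor gene with near-identical relatives that may share its reads, changed by 4.63 ± 0.75.

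The 12 largest falls by the same rule were Rad54b, Polq, Mpo, Arhgef39, Ctps, Prr11, Ankle1, Dsn1, Pask, BC030867, Chtf18 and Ms4a3. Rad54b, Polq, Dsn1 and Chtf18 act in DNA repair, mitosis or replication, and the cell cycle lists did not hold them. Rad54b, which acts in recombination, had 0.339, 0.679 and 1.13 CPM in Ly6Chi monocytes, against 64.1, 66.4 and 51.8 CPM in TpMo (log2 change -6.36 ± 0.35, adjusted p = 1.68e-14, and -7.16 without Ly6Chi replicate 3). Dsn1, a kinetochore protein, had 4.22, 5.09 and 3.17 CPM in Ly6Chi monocytes, against 112, 82.8 and 87.2 CPM in TpMo (log2 change -4.54 ± 0.22, adjusted p = 1.96e-15), and the repair polymerase Polq changed by -6.04 ± 0.61 (-5.23 to -8.78 without any 1 Ly6Chi library). Among genes at 200 CPM or more the largest falls beside the granule genes were Pkmyt1, a kinase that restrains CDK1 (-3.63 ± 0.24), the lamin Lmnb2, the histone-binding proteins Rbbp7 (-2.87 ± 0.11) and Dnajc9 (-2.55 ± 0.18) and the tubulin Tuba4a, with 137, 93.9 and 127 CPM in Ly6Chi monocytes, against 689, 652 and 684 CPM in TpMo (log2 change -2.50 ± 0.21, adjusted p = 2.36e-10).

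Receptors that guide migration rose more often than they fell. Cxcr4, the receptor for the marrow chemokine CXCL12, had 8.92, 6.62 and 11.2 CPM in Ly6Chi monocytes, against 53.4, 43 and 31.8 CPM in TpMo (log2 change -2.24 ± 0.30, adjusted p = 1.34e-06), without overlap; because TpMo were defined by surface CXCR4 in earlier work, this fall is a check of the labels and not a separate result. Ccr2, the receptor needed to leave the marrow, had 2562, 2441 and 2107 CPM in Ly6Chi monocytes, against 1339, 1395 and 1390.4 CPM in TpMo. The groups did not overlap, but the change did not pass the test (log2 change 0.79 ± 0.39, adjusted p = 0.164). It passed in limma with quality weights (adjusted p = 6.59e-07) and in edgeR on the 9 monocyte-path libraries (adjusted p = 0.000204) or the 6 libraries of these groups alone (adjusted p = 0.000638). Of 44 chemokine and chemoattractant receptors 12 rose and 2 fell, where 7.59% of all tested genes rose and 13.3% fell. The risers included receptors for bacterial formyl peptides, Fpr1 (3.98 ± 1.02) and Fpr2 (4.26 ± 0.98), the complement receptor C5ar1 (1.92 ± 0.52), the receptor for platelet-activating factor Ptafr (1.30 ± 0.27) and the chemokine receptor Cxcr2, at 7.56, 3.06 and 8.78 CPM in Ly6Chi monocytes and 0.592, 0.189 and 2.09 CPM in TpMo. In the fit on these 6 libraries alone Cxcr2 was not called (adjusted p = 0.0608). Cx3cr1, the fractalkine receptor, had 584, 664 and 226 CPM in Ly6Chi monocytes, against 87.2, 103 and 98.7 CPM in TpMo (log2 change 2.35 ± 0.65, adjusted p = 0.00876). Beside Cxcr4, the other receptor that fell was S1pr4, for sphingosine-1-phosphate (-1.01 ± 0.21).

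Among 43 integrins, selectins and other adhesion genes, 12 rose and 7 fell, beside 7.59% and 13.3% of all tested genes, so the falls were near the background. The integrin chains Itgam (1.42 ± 0.30), Itga4 (0.99 ± 0.18), Itgav (1.47 ± 0.34) and Itgb2 (0.84 ± 0.13) were higher, as were Cd33, a sialic acid lectin (2.43 ± 0.47), and the junction protein F11r at 8.14, 6.45 and 4.61 CPM in Ly6Chi monocytes and 0.828, 0.0947 and 0.0949 CPM in TpMo. Spn (CD43), a mucin that patrolling monocytes carry at high levels, was lower, with 31.4, 30.9 and 55.7 CPM in Ly6Chi monocytes, against 102, 107 and 108 CPM in TpMo (log2 change -1.41 ± 0.16, adjusted p = 1.14e-07). Pecam1 (-1.54 ± 0.41, and adjusted p = 0.0521 in the fit on these 6 libraries alone) and the tetraspanin Cd81 (-1.26 ± 0.16) fell too, whereas the integrin chain Itgal, with 606, 591 and 352 CPM in Ly6Chi monocytes and 423, 433 and 393 CPM in TpMo, overlapped between the groups. The actin genes were mostly not called, with 13 of 71 higher and 5 lower (7 higher without Ly6Chi replicate 1, and 8 without Ly6Chi replicate 2 or TpMo replicate 2). Gsn, which severs actin filaments, had 341, 334 and 206 CPM in Ly6Chi monocytes, against 80.5, 85.3 and 80.1 CPM in TpMo (log2 change 1.84 ± 0.20, adjusted p = 2.1e-08). Plek (pleckstrin) changed by 1.91 ± 0.34 and the coronin Coro7 by -1.09 ± 0.14. Tagln2, which binds actin filaments, had 274, 203 and 269 CPM in Ly6Chi monocytes, against 1015, 903 and 911 CPM in TpMo (log2 change -1.92 ± 0.15, adjusted p = 3.8e-11).

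Sensors of microbes and antibodies rose in part. Of 66 pattern recognition genes 22 rose, 3 fell and 41 were not called, with a median of 0.798. Of 21 Fc receptor and signalling genes 14 rose, none fell and 7 were not called, with a median of 0.707, where 7.59% of all tested genes rose. The Fc risers include Fcer1a and Ms4a2, also basophil and mast cell markers, which had no count in any TpMo library. Fcer1a was called in 8 of 16 alternatives. It was not called without Ly6Chi replicate 1 (adjusted p = 0.432) or TpMo replicate 1, 2 or 3 (adjusted p = 0.0945, 0.105 and 0.0991). The count of 22 pattern recognition genes was 14 without Ly6Chi replicate 1, 13 without TpMo replicate 1 and, with 5 lower, 18 without Ly6Chi replicate 3. Tlr2, the receptor for bacterial lipoproteins, had 333, 327 and 299 CPM in Ly6Chi monocytes, against 46.1, 62.2 and 71.6 CPM in TpMo (log2 change 2.41 ± 0.24, adjusted p = 5.47e-09), and each group's libraries lay close together. Clec4e, a lectin receptor for mycobacterial glycolipid, had 142, 168 and 174 CPM in Ly6Chi monocytes, against 49.6, 37.2 and 42.1 CPM in TpMo (log2 change 1.91 ± 0.20, adjusted p = 2.01e-08). Clec4d, its partner, changed by 3.13 ± 0.51. The inflammatory caspase Casp4 (1.53 ± 0.19), the inflammasome sensor Nlrc4 (1.07 ± 0.22) and the Toll-like receptor adaptor Myd88 (0.87 ± 0.13) were also higher. The lectins Mgl2 (-3.11 ± 0.48, and -7.26 without Ly6Chi replicate 3) and Clec5a (-0.84 ± 0.20) fell, but Mgl2 was not called in the fit on these 6 libraries alone (adjusted p = 0.0791).

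Activating and inhibitory Fc receptors both rose. Fcgr1, the high-affinity receptor for IgG, had 177, 118 and 96.2 CPM in Ly6Chi monocytes, against 30.1, 21.6 and 29.9 CPM in TpMo (log2 change 2.26 ± 0.60, adjusted p = 0.00614). Fcgr4 changed by 2.81 ± 0.52 (2.19 without Ly6Chi replicate 1 and 3.51 without TpMo replicate 3). The activating Fcgr3 changed by 0.82 ± 0.14 and the inhibitory Fcgr2b by 0.73 ± 0.12, and the kinases behind them, Syk (1.15 ± 0.18) and Fgr (1.62 ± 0.45), and the adaptor Fyb (2.30 ± 0.25) rose too. Cybb, the catalytic chain of the NADPH oxidase that makes superoxide, had 4458, 4472 and 3007 CPM in Ly6Chi monocytes, against 1886, 1846 and 1852 CPM in TpMo (log2 change 1.10 ± 0.19, adjusted p = 7.43e-05), and 2 of the 6 oxidase genes were called, both higher. Of 58 lysosomal genes 18 rose and 5 fell, with 11 higher without Ly6Chi replicate 1 and 3 lower without Ly6Chi replicate 1 or 3 or TpMo replicate 2 or 3. Ctss was among the risers, while Ctsc was not called. In class I presentation 5 of 16 genes were higher and 3 lower, with 2 higher without Ly6Chi replicate 1. The class I related H2-T24 changed by 1.77 ± 0.23 and the peptide trimming enzyme Erap1 by -0.74 ± 0.17.

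Cytokine receptors rose more often than they fell, with 19 of 42 higher and 5 lower. Without any 1 Ly6Chi library or without TpMo replicate 3 there were 3 lower. Among all tested genes 7.59% rose and 13.3% fell. Csf3r, the receptor for granulocyte colony-stimulating factor, had 449, 416 and 531 CPM in Ly6Chi monocytes, against 174, 161 and 207 CPM in TpMo (log2 change 1.37 ± 0.14, adjusted p = 1.49e-08). Il13ra1, the shared chain of the interleukin-4 and interleukin-13 receptor, had 312, 326 and 190.3 CPM in Ly6Chi monocytes, against 42.3, 40.3 and 25.7 CPM in TpMo (log2 change 2.94 ± 0.74, adjusted p = 0.0043), and its partner Il4ra changed by 0.92 ± 0.17. Tgfbr2, a receptor for transforming growth factor beta, had 79.1, 62.3 and 12.4 CPM in Ly6Chi monocytes, against 8.99, 6.63 and 7.87 CPM in TpMo (log2 change 2.71 ± 0.47, adjusted p = 6.31e-05). Its Ly6Chi replicate 3 lay just above the TpMo libraries, and without that library the change was 3.14. Il1r2, a decoy receptor for interleukin-1, had 18.8, 7.13 and 19.1 CPM in Ly6Chi monocytes, against 1.06, 4.17 and 1.9 CPM in TpMo (log2 change 2.68 ± 0.53, adjusted p = 0.00035, and 3.36 without TpMo replicate 2), and limma did not call it (adjusted p = 0.139). Il17ra (1.06 ± 0.16), Il2rg (1.61 ± 0.23), Il6ra (0.71 ± 0.17) and Tnfrsf1b (1.10 ± 0.25) were higher as well. Csf1r itself was not called (log2 change 0.93 ± 0.43, adjusted p = 0.132) although its libraries did not overlap. It was called by limma (adjusted p = 1.26e-05) and in the fits on 9 (adjusted p = 0.00356) and 6 libraries (adjusted p = 0.0119). Cytokine genes were mostly at low levels, with 5 of 39 higher and 1 lower. The 5 were 1 to 3 when Ly6Chi replicate 1 or 2 or TpMo replicate 1, 2 or 3 was left out, and without Ly6Chi replicate 2 there were 3 lower. The chemokine Ccl6 was the most abundant to pass the test, with 991, 1097 and 561 CPM in Ly6Chi monocytes, against 195, 199 and 163 CPM in TpMo (log2 change 2.25 ± 0.35, adjusted p = 1.42e-05).

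Of 38 genes taken as marks of classical monocytes 17 rose and 1 fell, with a median of 0.894. Among all tested genes 7.59% rose and 13.3% fell. Without Ly6Chi replicate 1 or TpMo replicate 3, 11 of the 38 rose, and 10 did without TpMo replicate 2. Lyz2 was the most abundant transcript per length in both groups, with a mean of 128530 TPM (a scale that corrects for transcript length) in Ly6Chi monocytes and 68562 TPM in TpMo. In CPM it had 59629, 64311 and 41502 in Ly6Chi monocytes and 26805, 28915 and 27624 in TpMo (log2 change 0.99 ± 0.23, adjusted p = 0.00179), and its near-identical neighbour Lyz1 may share its reads. Emilin2, a matrix glycoprotein, had 1989.6, 1979 and 1503 CPM in Ly6Chi monocytes, against 384, 618 and 881 CPM in TpMo (log2 change 1.54 ± 0.28, adjusted p = 9.82e-05). The member that fell was Ly6c2, one of the genes for the Ly6C antigen that names the mature cell, whose reads may be shared with its near-identical neighbour. It had 1966, 1697 and 1994 CPM in Ly6Chi monocytes, against 2771, 2809.8 and 3101 CPM in TpMo (log2 change -0.62 ± 0.19, adjusted p = 0.0175), a fall that was not called without Ly6Chi replicate 2 (adjusted p = 0.0758). Its transcript was abundant in both populations and lower in the one named for it. Of 8 S100 genes 2 fell and none rose: S100a8, a chain of the antimicrobial protein calprotectin, had 11.3, 7.13 and 8.69 CPM in Ly6Chi monocytes, against 45.9, 41.1 and 36.8 CPM in TpMo (log2 change -2.15 ± 0.32, adjusted p = 6.28e-06). S100a9, its partner, changed by -1.90 ± 0.44 (-2.50 without Ly6Chi replicate 1). Limma with quality weights called neither S100a8 (adjusted p = 0.337) nor S100a9 (adjusted p = 0.549). The coagulation factor gene F13a1 was abundant in both groups and not called, with 5955, 5901 and 5674 CPM in Ly6Chi monocytes and 6352, 6449 and 6271 CPM in TpMo.

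Of 26 genes known from patrolling monocytes 10 rose and 1 fell, with a median of 1.55, where 7.59% of all tested genes rose. Nr4a1, the nuclear receptor those cells require, had 73, 125 and 25.2 CPM in Ly6Chi monocytes, against 6.51, 12.6 and 6.55 CPM in TpMo (log2 change 3.11 ± 0.73, adjusted p = 0.00219, and 2.52 without Ly6Chi replicate 2). Ace had 31, 47.5 and 13.9 CPM in Ly6Chi monocytes, against 0.592, 1.56 and 1.42 CPM in TpMo. Spn was the member that fell. Treml4, a further mark of those cells, passed the test (log2 change 2.40 ± 0.84, adjusted p = 0.0415) with overlapping libraries, at 51.1, 24.8 and 7.04 CPM in Ly6Chi monocytes and 8.76, 4.64 and 2.32 CPM in TpMo, and not without Ly6Chi replicate 1 (log2 change 1.57, adjusted p = 0.272), Ly6Chi replicate 2 (adjusted p = 0.0643), TpMo replicate 2 (adjusted p = 0.128) or TpMo replicate 3 (adjusted p = 0.166). The list summed to 1978, 2037 and 1164 CPM in Ly6Chi libraries, against 604 to 627.7 CPM in TpMo libraries, and without Ly6Chi replicate 3 it had 9 genes higher and 1 lower with a median of 1.9. Without Ly6Chi replicate 2 there were 2 lower. The Ms4a genes, a cluster of membrane proteins on chromosome 19, changed in both directions: Ms4a4a had 392, 283 and 191 CPM in Ly6Chi monocytes, against 29, 24.9 and 32.3 CPM in TpMo (log2 change 3.33 ± 0.49, adjusted p = 8.92e-06). Ms4a8a (2.10 ± 0.44) and Ms4a6b (1.32 ± 0.32) rose, while Ms4a3 fell by 4.35 on the log2 scale.

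Of 95 transcription factors 25 rose and 5 fell, where 7.59% of all tested genes rose and 13.3% fell. Without Ly6Chi replicate 1 there were 16 higher, and 14 without TpMo replicate 1 or 2. Cebpa, a factor of the myeloid lineage, had 47.4, 37.5 and 39.5 CPM in Ly6Chi monocytes, against 15.4, 20.9 and 18.7 CPM in TpMo (log2 change 1.18 ± 0.29, adjusted p = 0.00326). Cebpb, a factor of mature and patrolling monocytes, had 39.8, 61.3 and 103 CPM in Ly6Chi monocytes, against 0.532, 2.08 and 1.94 CPM in TpMo (log2 change 5.47 ± 1.71, adjusted p = 0.0211). The libraries lay far apart, yet its call was lost without Ly6Chi replicate 3 (adjusted p = 0.0625) or without TpMo replicate 1, 2 or 3 (adjusted p = 0.096, adjusted p = 0.0696 and adjusted p = 0.0658). Stat3 had 712, 574 and 614 CPM in Ly6Chi monocytes, against 332, 317 and 304 CPM in TpMo (log2 change 1.00 ± 0.13, adjusted p = 1.2e-06). Tcf4 (1.52 ± 0.22), Runx3 (1.47 ± 0.19), Klf3 (1.93 ± 0.21) and Mxd4, an antagonist of MYC (2.02 ± 0.29), were higher too. The factors that fell included Myc (-1.77 ± 0.31) and Myb (-2.59 ± 0.28, and -3.64 without Ly6Chi replicate 3), both drivers of progenitor growth, and Tfec (-1.70 ± 0.18), a relative of the lysosomal regulator TFEB.

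Irf8, Spi1 and Klf4, factors that define the lineage, were not called, though each was in some other fit. Irf8, which directs monocyte and dendritic cell fate, had 492, 536 and 306 CPM in Ly6Chi monocytes, against 935, 1225 and 1144 CPM in TpMo. The groups did not overlap, yet the change did not pass the test (log2 change -1.31 ± 0.58, adjusted p = 0.116), whereas limma (adjusted p = 7.66e-05) and the fits on 9 (adjusted p = 0.000448) and 6 libraries (adjusted p = 0.00314) called it lower. Spi1 (PU.1) had 565, 576 and 473 CPM in Ly6Chi monocytes and 109.5, 164 and 479 CPM in TpMo, where replicate 3 overlapped the monocytes (log2 change 1.10 ± 0.42, adjusted p = 0.0622). It was called higher without TpMo replicate 3 (adjusted p = 0.000919), by DESeq2 (adjusted p = 0.0282) and limma (adjusted p = 0.00893), with RLE (adjusted p = 0.0421) or upper quartile scaling (adjusted p = 0.0334) and among genes at 5 CPM or more (adjusted p = 0.042). Klf4, which monocytes require, had 89.4, 72.3 and 31.5 CPM in Ly6Chi monocytes and 98.2, 111 and 124 CPM in TpMo and was not called, but limma called it lower (adjusted p = 0.0312). Of 25 stem and progenitor genes 3 rose (1 without TpMo replicate 1) and 7 fell, with a median of -0.686 (-0.463 with the 6 genes that had no count in one group set to the bound that 3 counts allow). Cd34 had 8.29, 6.45 and 10.5 CPM in Ly6Chi monocytes, against 33.6, 42.3 and 43 CPM in TpMo (log2 change -2.20 ± 0.59, adjusted p = 0.00717). Flt3, a receptor of progenitors and dendritic cells, was higher, with 65.8, 82.5 and 18.6 CPM in Ly6Chi monocytes and 5.56, 9.57 and 14.8 CPM in TpMo (log2 change 2.47 ± 0.66, adjusted p = 0.00688). Replicate 3 of the monocytes lay just above the highest TpMo library, and without that replicate the change was 2.85. Without TpMo replicate 1 the call was lost (adjusted p = 0.0514).

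**Figure D4:**
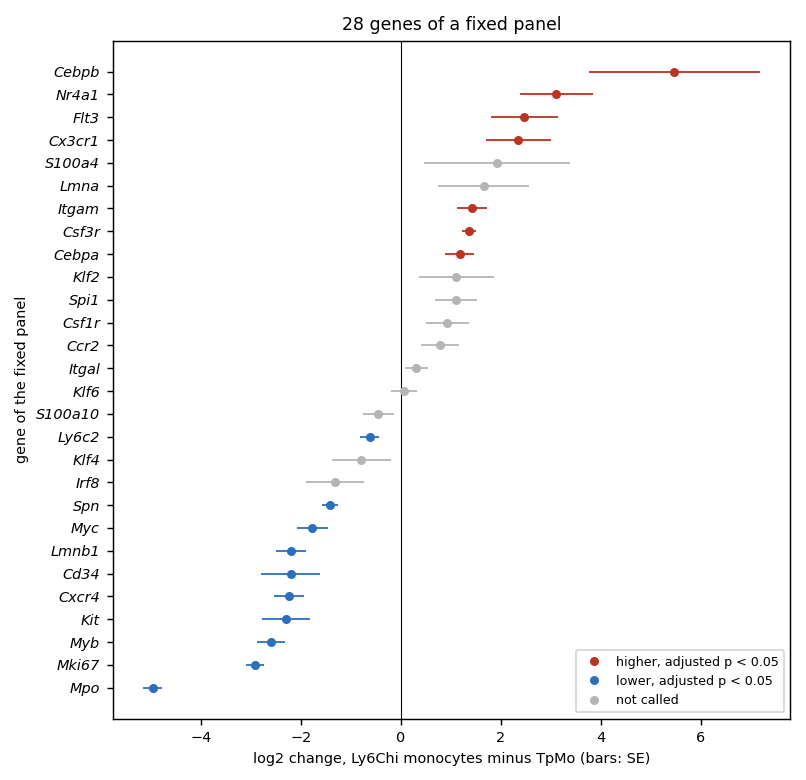
Points are the log2 changes of Ly6Chi monocytes minus TpMo for 28 genes of a fixed panel, with bars for SE (x axis); red and blue genes passed adjusted p under 0.05 and grey ones did not. Mpo (-4.96) and Mki67 (-2.91) lie at the low end and Cebpb (5.47) at the high end with the widest bar of the called genes, and the lineage factors Spi1, Irf8, Klf2, Klf4 and Klf6 are grey.

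Signal-dependent genes formed a pair of lists. Of 25 NF-kB response genes 10 rose and none fell, with a median of 1.03, where 7.59% of all tested genes rose. Without TpMo replicate 1, 6 rose, and without Ly6Chi replicate 2, 1 fell. Nfkbia, the inhibitor that NF-kB induces, had 187, 213 and 317 CPM in Ly6Chi monocytes, against 99.2, 101 and 117 CPM in TpMo (log2 change 1.18 ± 0.20, adjusted p = 4.92e-05). Nfkb2 changed by 1.33 ± 0.25. Immediate early genes, which can respond to handling of cells within minutes, varied within the groups. Of 27 genes 6 rose and 1 fell. They summed to 4450, 8195 and 2341 CPM in Ly6Chi libraries, against 2500, 4035 and 5374 CPM in TpMo libraries, and Fos had 647, 1395 and 177 CPM in Ly6Chi monocytes and 411, 754 and 1031 CPM in TpMo. Nr4a1, itself an immediate early gene, followed their order within the monocytes, highest in replicate 2 and lowest in replicate 3, but not within TpMo. The part of handling in its rise was not tested.

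Genes for the making of nucleotides were mostly lower in Ly6Chi monocytes. In the list of serine, one-carbon and nucleotide synthesis 30 of 38 genes fell and 1 rose, with a median of -1.42. Ctps, which makes CTP, had 1.65, 4.08 and 1.13 CPM in Ly6Chi monocytes, against 53.8, 59.3 and 57.1 CPM in TpMo (log2 change -4.90 ± 0.38, adjusted p = 3.91e-11). Phgdh, the first enzyme of serine synthesis, had 10.8, 10.2 and 14.6 CPM in Ly6Chi monocytes, against 185, 138 and 158 CPM in TpMo (log2 change -3.74 ± 0.43, adjusted p = 1.06e-07), with a cMoP mean of 754 ± 55.3 CPM. Tyms, which makes thymidylate, changed by -3.76 ± 0.22, Psat1 by -2.13 ± 0.20 and the mitochondrial folate enzymes Shmt2 and Mthfd2 by -1.79 ± 0.20 and -1.63 ± 0.20.

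Genes of protein synthesis had smaller changes. Of 51 translation factors and tRNA synthetases 24 fell and 1 rose (median -0.396), of 56 ribosome biogenesis genes 16 fell and none rose (median -0.315), and of 77 mitochondrial ribosomal proteins 20 fell (13 without Ly6Chi replicate 2) and 1 rose (median -0.273). Ncl, the nucleolar protein nucleolin, had 118, 89.3 and 87.3 CPM in Ly6Chi monocytes, against 246, 248 and 225 CPM in TpMo (log2 change -1.29 ± 0.21, adjusted p = 3.15e-05). Dkc1, which modifies ribosomal RNA, changed by -1.36 ± 0.17. The cap-binding factor Eif4e changed by -1.09 ± 0.15, and its inhibitor Eif4ebp1 was the riser of the translation list (0.62 ± 0.15). The 80 cytosolic ribosomal proteins stayed near 0, with 2 lower, none higher and a median of 0.0195. Of 42 proteasome genes 18 fell and 1 rose; Psmd14, a deubiquitinase of the proteasome lid, had 105, 114 and 112 CPM in Ly6Chi monocytes, against 226, 215 and 212 CPM in TpMo (log2 change -0.98 ± 0.10, adjusted p = 6.42e-09).

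Energy metabolism changed gene by gene. In glycolysis and the pentose phosphate pathway 13 of 33 genes fell and 4 rose (2 without Ly6Chi replicate 1 or any 1 TpMo library). Pgk1 had 159, 160.3 and 159.9 CPM in Ly6Chi monocytes, against 304, 306 and 292 CPM in TpMo (log2 change -0.91 ± 0.10, adjusted p = 6.49e-08). Tpi1 (-1.12 ± 0.18), Ldha (-0.85 ± 0.12) and the hexokinase Hk3 (-0.92 ± 0.11) fell with it. The genes that rose included Pfkfb3 and Pfkfb4, enzymes that make the activator of phosphofructokinase; Pfkfb4 had 249, 242 and 169 CPM in Ly6Chi monocytes, against 98.5, 64.7 and 71.2 CPM in TpMo (log2 change 1.49 ± 0.28, adjusted p = 0.000199). Pfkfb3 changed by 1.61 ± 0.23. Oxidative phosphorylation had 14 of 77 nuclear genes lower and 2 higher, where 13.3% of all tested genes were lower and 7.59% higher, among them the ATP synthase chain Atp5b (-0.83 ± 0.18) and, higher, Cox7a2l (0.70 ± 0.11), and none of 13 mitochondrially encoded genes was called. In sterol and fatty acid metabolism 8 of 41 genes fell (5 without TpMo replicate 3) and 5 rose, beside the same shares of all tested genes. The synthesis genes Fdft1 (-1.18 ± 0.27) and Fasn (-1.16 ± 0.26) were lower. Abcg1, which exports cholesterol, had 244, 231 and 155 CPM in Ly6Chi monocytes, against 78.8, 53.2 and 50.5 CPM in TpMo (log2 change 1.79 ± 0.40, adjusted p = 0.00124). Lpcat2, which makes platelet-activating factor, changed by 3.02 ± 0.35. Of 29 iron genes 5 fell and 6 rose, where 13.3% of all tested genes fell and 7.59% rose. Tfrc, the transferrin receptor that takes up iron, had 5.72, 10.5 and 4.78 CPM in Ly6Chi monocytes, against 32.4, 41.6 and 23.6 CPM in TpMo (log2 change -2.31 ± 0.26, adjusted p = 6.59e-08), and the ferritin chains that store it, Fth1 (0.67 ± 0.12) and Ftl1 (0.44 ± 0.11), were higher.

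Most genes of the nuclear lamina were lower in Ly6Chi monocytes. Of 18 genes of the lamina and nuclear envelope 10 fell and 2 rose, with a median of -0.621 (1 rose without TpMo replicate 1 or 2). Lmnb1, a B-type lamin, had 121, 79.1 and 169 CPM in Ly6Chi monocytes, against 566, 483 and 641 CPM in TpMo (log2 change -2.19 ± 0.30, adjusted p = 2.11e-06). Lmnb2, the other, had 33, 14.3 and 30.2 CPM in Ly6Chi monocytes, against 229, 186 and 193 CPM in TpMo (log2 change -2.94 ± 0.20, adjusted p = 1.74e-12). Both were at or below the TpMo level in cMoP, at 425 ± 13.2 CPM and 182 ± 16 CPM. Lbr, the lamin B receptor, changed by -1.22 ± 0.13 and the pore protein Nup210 by -1.68 ± 0.20, whereas Lmna, the A-type lamin, was at 4.65, 6.11 and 0.869 CPM in Ly6Chi monocytes and 0, 0.853 and 2.75 CPM in TpMo and was not called, though without TpMo replicate 3 (adjusted p = 0.0484) and by limma (adjusted p = 0.0284) it was. Ankle2, a protein of nuclear envelope reassembly, was 1 of the 2 that rose (0.98 ± 0.24).

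Of 30 genes of the BCL2 family and cell death, 7 rose and 4 fell, beside 7.59% and 13.3% of all tested genes, so the share that fell was at the background. Mcl1, a BCL2 relative that keeps myeloid cells alive, had 283, 241 and 315 CPM in Ly6Chi monocytes, against 76, 106 and 116 CPM in TpMo (log2 change 1.49 ± 0.19, adjusted p = 3.83e-07), and the pro-death member Bax rose too (0.91 ± 0.22). The necroptosis effector Mlkl was among the genes that fell (-1.46 ± 0.22). Of 27 CDK inhibitor and quiescence genes 8 fell and 1 rose (2 without Ly6Chi replicate 1 or TpMo replicate 3). The inhibitor Cdkn2d fell (-0.95 ± 0.20) along with Cdk4 (-1.74 ± 0.19) and Cdk6 (-1.24 ± 0.11), and the antiproliferative gene Btg1 was the riser, with 309, 442 and 244 CPM in Ly6Chi monocytes, against 117, 164 and 147 CPM in TpMo (log2 change 1.21 ± 0.23, adjusted p = 0.000243). Cdkn1a was not called (-0.69 ± 0.45).

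Cell division and interferon genes are given in brief. Of 323 cell cycle genes 280 fell and 1 rose. Mki67, a mark of dividing cells, had 123, 102 and 184 CPM in Ly6Chi monocytes, against 966, 1126 and 998 CPM in TpMo (log2 change -2.91 ± 0.18, adjusted p = 2.94e-13). Top2a changed by -4.49 ± 0.21. Of 107 interferon genes 74 rose and 1 fell, with a median of 1.46; Oas2, an antiviral enzyme, changed by 4.17 ± 0.85.

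Markers of other lineages were mostly low. Erythroid genes summed to 29.55 to 31.74 CPM in Ly6Chi monocytes and 19.97 to 25.5 CPM in TpMo with none of 13 called, and without Ly6Chi replicate 3, 1 was called higher and 1 lower. Megakaryocyte genes summed to 1.359 to 7.075 CPM in Ly6Chi monocytes and 0.7589 to 3.195 CPM in TpMo. T and NK cell genes summed to 0.2607 to 0.6784 CPM in Ly6Chi monocytes and 5.448 to 7.81 CPM in TpMo, mainly Nkg7, which the azurophil list holds too. B lineage genes summed to 602.8 to 619.7 CPM in Ly6Chi monocytes and 625.4 to 723.4 CPM in TpMo, nearly all of it Ighm, while Cd79a had 1.74, 1.36 and 0.130 CPM in Ly6Chi monocytes and 0.296, 0.521 and 0.0949 CPM in TpMo. Basophil and mast cell genes summed to 16.64 to 30.07 CPM in Ly6Chi monocytes and 13.84 to 16.46 CPM in TpMo, with 3 of 8 higher and 1 lower (1 higher without Ly6Chi replicate 1 or TpMo replicate 1 or 2). Eosinophil genes summed to 1.173 to 5.427 CPM in Ly6Chi monocytes and 3.905 to 11.34 CPM in TpMo. Late neutrophil granule genes summed to 5115 to 8704 CPM in Ly6Chi monocytes and 5993 to 7507 CPM in TpMo. Most of that sum was Chil3, with means of 4544 and 5001 CPM, which was not called. Of the 24 genes 5 were higher and 3 lower, where 7.59% of all tested genes were higher and 13.3% lower. The granule protein genes Ltf (lactoferrin) and Camp were low. Ltf had 22.9, 12.9 and 2.78 CPM in Ly6Chi monocytes and 12, 14.1 and 20.6 CPM in TpMo. Camp had 2.42, 2.38 and 0.608 CPM in Ly6Chi monocytes and 2.01, 1.23 and 3.08 CPM in TpMo. Other neutrophil markers rose. Cd177, a neutrophil surface protein, had 957, 995 and 523 CPM in Ly6Chi monocytes, against 252, 307 and 304 CPM in TpMo (log2 change 1.52 ± 0.39, adjusted p = 0.00517). Cxcr2 (2.79 ± 0.57) and Il1r2 (2.68 ± 0.53) of this list were higher too, while S100a8 and S100a9 were lower. Csf3r, another neutrophil marker, also rose (1.365). The part of neutrophils in these rises was not tested.

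The step was then set against a step of the neutrophil path, preNeu over proNeu2, in an interaction test, since the 2 steps share no libraries. The difference (monocyte step minus neutrophil step) passed the test for 4363 genes (24%), positive for 10.2% and negative for 13.8% of tested genes. Azurophil genes had medians of -2.56 for Ly6Chi monocytes over TpMo and -1.98 for preNeu over proNeu2, and the difference was negative for 8 of 15 genes and positive for 3. Mpo changed by -4.96 ± 0.18 at the monocyte step and by -2.79 at the neutrophil step (difference -2.18 ± 0.22, adjusted p = 8.54e-09). Class II genes had medians of 0.96 and -0.00654, and 6 of 12 had a positive difference and 2 a negative one; for H2-Ab1 the difference was 5.08 ± 0.51 (adjusted p = 9.11e-09).

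The steps also differed in the lamina and in biosynthesis. Lamina genes had a median of -0.621 at the monocyte step and 0.463 at the neutrophil step, and 12 of 18 differences were negative by the test with 0 positive; Lmnb2 changed by -2.94 ± 0.20 and 0.83 (difference -3.77 ± 0.27, adjusted p = 7.53e-12). G2 and M phase genes had medians of -3.21 and 0.839, with 169 of 174 differences negative and 1 positive. Ribosome biogenesis genes had medians of -0.315 and -1.38, with 26 of 56 differences positive and 1 negative, and ER chaperone genes had medians of -0.225 and -1.14, with 27 of 39 positive and 0 negative. Actin genes had medians of 0.11 and 1.08, with 39 of 71 differences negative and 2 positive. The neutrophil-path libraries carry female transcripts, with Xist at 369 to 459 CPM, so each step lies within 1 sex and the difference between steps lies across both.

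**Figure D5:**
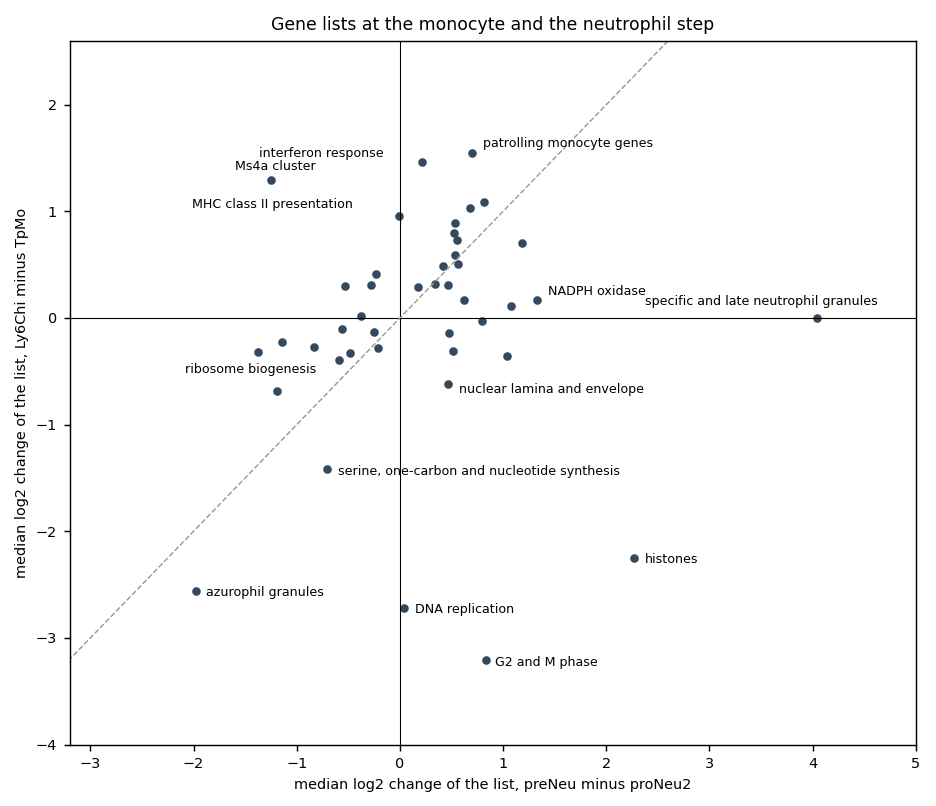
Each point is a gene list, with its median log2 change for Ly6Chi monocytes over TpMo on the y axis and for preNeu over proNeu2 on the x axis. The dashed line marks equal changes. Azurophil genes lie near the dashed line at -2.56 on the y axis and -1.98 on the x axis, cell division lists lie below it, class II presentation and the interferon response above it, and late neutrophil granule genes far to the right (4.04) at 0 for monocytes.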

How the data were processed

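The table holds raw read counts per gene as deposited by the authors, whole numbers for 54752 features in 33 libraries. Reads were aligned with STAR and counted with featureCounts on GRCm38, per the submitters' processing notes; versions and the strand setting are not given in the sources used here, so reads of a gene and an overlapping antisense gene cannot be told apart, and close paralogs may share reads. Each library was made from 2 ng of total RNA with a SMART-seq2 protocol of 20 µM template-switching oligo, 200 pg of cDNA, a Nextera XT kit and 2x151 cycles, per the labels' protocols. Of low counts (1 to 10) in the 6 libraries, 74.1% to 77.5% were even; counts halved and rounded were an alternative.

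All 33 libraries in 11 groups were fitted with edgeR 4.0.16 (R 4.3.3) quasi-likelihood, with TMM scaling and filterByExpr. The CPM values carry no prior count, and the fitted log2 changes carry the default prior count of edgeR. Each SE was derived from the test, as the absolute log2 change divided by the square root of its quasi-likelihood F statistic. In this fit 18198 genes were tested with 22 residual degrees of freedom and a common biological coefficient of variation of 0.472. Called means an adjusted p under 0.05. DESeq2 1.42.0, limma 3.58.1 and other scalings, filters and left-out libraries were alternatives. Tested on simulated counts for 17177 genes with 200 changed, the fit recovered 36% of 2-fold and 68% of 4-fold changes with 0.952% false calls. On the same counts false calls were 10.6% with DESeq2 and 23.4% with limma. They were 5.75% with edgeR on the 6 libraries alone, which tested 13362 genes. The simulated counts were drawn from the means and gene-wise spread of the main fit, so the comparison favours that fit. Far fewer genes were changed in them than were called in the data. These rates therefore cannot be carried over to the real calls of any tool. Whether calls that only the alternatives made are false was not tested. Bounds set by 3 counts cover counting error only.

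The genes named are the 12 largest changes each way at 20 CPM or more and the 10 at 200 CPM or more, the largest changes per list, a panel of 29 genes, and examples added after values were seen, mostly genes whose calls held without any 1 library; the rule named further genes that are not printed. Lists and members were chosen with earlier results of these data known, and lists overlap. A list's median is not changed by setting genes with no count in a group to the bound of 3 counts, except where given and for complement (0.243), cytokines (0.622), Ly6 (-0.00351), dendritic (1.56), B lineage (0.254), megakaryocyte (0.234) and eosinophil (-0.707) genes. Promoters came from RefSeq tables (GRCm38.p6), with 11094 of the tested genes matched by symbol. Replicates are biological per the series' text. The p-values and SE of the main fit rest on the spread within groups, pooled over all 33 libraries in 11 groups. They do not measure the spread of the Ly6Chi and TpMo libraries alone, which only the fit on those libraries uses.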

Additional observations from a re-analysis of the deposited data

Results flagged for a closer look

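For 13 of the 29 panel genes the change at the monocyte step (Ly6Chi over TpMo) differed from that at the neutrophil step (preNeu over proNeu2) by the interaction test of edgeR with Benjamini-Hochberg adjustment, 3 with a positive difference and 10 with a negative one. Among all tested genes 24% differed, 10.2% with a positive and 13.8% with a negative difference, so the positive share of the panel was near the background. Values are differences of log2 changes ± SE, monocyte step minus neutrophil step. The alternatives for single genes here were chosen after seeing the data.

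Cell division and granule genes had negative differences, for Mki67 of -4.11 ± 0.25 (adjusted p = 2.06e-13), for the lamin Lmnb1 of -3.44 ± 0.42 (adjusted p = 2.85e-07) and for Mpo of -2.18 ± 0.22 (adjusted p = 8.54e-09). The mucin Spn (-1.52 ± 0.23, adjusted p = 8.09e-06) and the receptor Cxcr4 (-2.25 ± 0.41, adjusted p = 0.000118) were negative too. Cxcr4 changed by 0.0081 at the neutrophil step, so its difference lies in the monocyte step. Because TpMo were defined by surface CXCR4 in earlier work, it is a check of the labels and not a separate result. The transcription factor Klf6 was not called at the monocyte step (log2 change 0.06, adjusted p = 0.942). In preNeu it was at 297, 263 and 193 CPM, against 51.6, 55.1 and 45.2 CPM in proNeu2. With that rise at the neutrophil step, Klf6 had a negative difference (-2.25 ± 0.37, adjusted p = 3.21e-05). So had Irf8 (-2.86 ± 0.88, adjusted p = 0.0172), but it had 4.11, 6.14 and 45.8 CPM in preNeu, against 3.07, 9.29 and 4.54 CPM in proNeu2, and without preNeu replicate 3, a library of 5517734 counts, the difference was -1.16 and not called (adjusted p = 0.292). It was also not called by limma (-2.07, adjusted p = 0.199) or in the fit on the libraries of the 4 groups alone (adjusted p = 0.0621). The same preNeu library was the highest of the 3 for Csf1r, Cd34, Myc and Mpo. Myb (-0.97 ± 0.36, adjusted p = 0.0485) and the progenitor receptor Kit (-1.46 ± 0.54, adjusted p = 0.0469), which was near 0 in both monocyte groups, lay just past the threshold. Their calls ended under most alternatives, among them other scalings (adjusted p = 0.0579 for Myb and 0.0585 for Kit with RLE factors), limma (0.0548 for Myb and 0.782 for Kit) and most left-out libraries, and without Ly6Chi replicate 3 the difference for Myb was -2.04 (adjusted p = 9.68e-07). For Klf2 the difference was -7.21 ± 1.77 (adjusted p = 0.00344), although its change at the monocyte step was 1.11 and not called (adjusted p = 0.344). Klf2 had no count in any proNeu2 library, so the size of this difference depends on the default prior count of the fit.

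The differences were positive for Csf3r (1.58 ± 0.20, adjusted p = 5.02e-07), which rose at the monocyte step, for Cebpa (2.72 ± 0.42, adjusted p = 1.05e-05) and for the fractalkine receptor Cx3cr1 (3.46 ± 1.03, adjusted p = 0.0137). The call of Cx3cr1 was lost without preNeu replicate 1 (adjusted p = 0.0605), with limma (adjusted p = 0.0733) and with no filter on low counts (adjusted p = 0.0509). Cx3cr1 was low in the neutrophil libraries.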

How the results depend on the processing

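With the main settings 3802 genes were called, 1382 higher and 2420 lower in Ly6Chi monocytes. DESeq2 moved the higher calls to 2088. A test against a fold change of 1.5 called 1719 genes, 481 higher and 1238 lower, and 2746 for the difference between the steps. Leaving out 1 library of either group called 2990 to 3399 genes, 860 to 1213 higher and 2079 to 2285 lower. Leaving out 1 library of the 4 groups in the difference between the steps called 3753 to 4603 genes for it, and 3844 to 4200 when that library was Ly6Chi or TpMo. The higher calls numbered 860 without TpMo replicate 1 and 911 without TpMo replicate 2. The other scalings and filters, limma and halved counts gave 3293 to 4148 calls, the fit on the 9 monocyte-path libraries 3860 and that on the 6 Ly6Chi and TpMo libraries alone 3155. Of the named genes, the test against a fold change of 1.5 ended the calls of 26, limma ended 6 and added 11. Calls with little margin ended elsewhere too, for Ciita and Treml4 with no filter on low counts and in the fits on 9 or 6 libraries, for Cebpb and Cd209a with no filter, for Cd209a with DESeq2 and for Spic with limma, with no filter and in the fit on 9 libraries. Of named genes, Klf6, which was not called, changed sign without Ly6Chi replicate 2 (-0.18) and without TpMo replicate 1 (-0.07) and ranged up to 0.20 when 1 library was left out. No paired analysis was possible because the labels number libraries in 1 run and give no replicate number that the groups share. Depth limits Ly6Chi replicate 2 (6032939 counts). Ly6Chi replicate 3, which stands apart, also carries a library number outside the run of the others, and its place in any batch is not given. The causes of these shifts were not tested.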

Other observations

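The remaining S100 genes of the fixed panel and their neighbour S100a6 were not called, but limma with quality weights called all 3. S100a4 had 2.33, 2.89 and 2.95 CPM in Ly6Chi monocytes, against 0.237, 1.52 and 0.379 CPM in TpMo (log2 change 1.92 ± 1.46, adjusted p = 0.422, 3.11 without TpMo replicate 2 and 1.49 without TpMo replicate 1; adjusted p = 0.011 by limma). S100a6 had 74.3, 77.8 and 89.8 CPM in Ly6Chi monocytes, against 45.9, 46.8 and 46.8 CPM in TpMo, and was called in the fits on the 9 monocyte-path libraries (adjusted p = 0.0378) and on these 6 libraries alone (adjusted p = 0.00851) as well as by limma (adjusted p = 0.00498). S100a10 had 85.6, 94.8 and 148 CPM in Ly6Chi monocytes, against 141, 161 and 146 CPM in TpMo (adjusted p = 0.00404 by limma).

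Of 19 noncoding RNAs that host small nucleolar RNAs 3 rose and 3 fell, beside 7.59% and 13.3% of all tested genes. Snhg5 had 15.1, 13.4 and 10.2 CPM in Ly6Chi monocytes, against 48.8, 36.6 and 46 CPM in TpMo (log2 change -1.77 ± 0.20, adjusted p = 9.18e-08), with no overlap between the groups. Of complement and coagulation genes 6 of 27 rose and 3 fell, beside the same 7.59% and 13.3%. C4b, a complement component, had 8.14, 6.11 and 2.82 CPM in Ly6Chi monocytes, against 0.237, 0.189 and 0.142 CPM in TpMo (log2 change 4.87 ± 1.31, adjusted p = 0.00694).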
